A study of Homo sapiens with 18 samples.

Results

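The compounds UPF1069 and olaparib were compared directly with each other, at the same dose and time, in LNCaP, a line of human prostate cancer cells that respond to androgen and were grown from a lymph node metastasis. Cells in RPMI medium with 10% fetal bovine serum received 10 uM of UPF1069 or 10 uM of olaparib for 24 h. DMSO, the solvent, given for the same time, is the reference level. Each of these groups has 2 libraries, which the series record calls duplicates of a biological kind, and all of them are the same cell line. The genes compared are those with a mean deposited value of at least 1 CPM (read counts scaled to a common library size) over the 8 libraries of the inhibitor table, which was the case for 13337 of 21391 features (62.3%). The series holds 18 libraries in 9 groups in all. The DMSO libraries and the 2 veliparib libraries of the same table also entered the estimate of the spread, and the libraries of siRNA-treated cells appear once, as levels. Olaparib inhibits PARP1 and PARP2, and UPF1069 is known by its code name as an inhibitor with a preference for PARP2. No transcript marks the presence of either compound, so that the labels could not be checked against the data.

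PARP1 and PARP2 bind DNA breaks and attach chains of ADP-ribose to themselves and to nearby proteins, which opens chromatin and recruits repair factors. Inhibitors block the chain and can hold the enzymes on DNA, where they stand in the way of replication forks. LNCaP cells depend on the androgen receptor, a hormone-activated transcription factor that drives the kallikreins and other genes of the luminal prostate cell. They also keep a working p53 response, which switches on cell cycle inhibitors and repair genes after DNA damage. The question this comparison addresses is which of these programmes differ between cells exposed to equal doses of the 2 compounds.

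Recovered depth was 31.8 and 32.1 M reads in the UPF1069 libraries and 32.9 and 35.7 M in the olaparib libraries, and 3 reads amounted to 0.0841 to 0.113 CPM over the inhibitor table. Between duplicates, the chi-square per gene (1 if reads differed by counting noise only) was 1.31 for UPF1069, 2.15 for olaparib, 1.66 for DMSO and 6.38 for veliparib. All 10 luminal prostate markers examined reached a mean of 1 CPM or more, and their summed level was 5321 to 5361 CPM with UPF1069, 3928 to 3952 CPM with olaparib and 5419 to 5514 CPM in DMSO. The sum includes KLK3 and KLK2, which are described below as genes of the androgen programme. Of 4 basal markers, KRT5 and TP63 were not analysed here and the others summed to at most 1.07 CPM. Of 5 immune markers, 3 were not analysed here and the others summed to at most 0.188 CPM. Whether duplicates came from separate cultures is not stated beyond the word biological, and p-values measure the spread between these libraries.

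A large share of genes differed between the compounds, mostly by small amounts. With limma's trend method on log2(CPM + 1) and a Benjamini-Hochberg adjusted p below 0.05, the rule behind every gene called here, 6822 of 13337 genes (51.2%) were called. UPF1069 gave the higher level in 3222 of them (24.2% of genes tested) and the lower level in 3600 (27.0%). Which direction held more calls depended on the setting: edgeR gave 3638 higher and 3272 lower, DESeq2 2806 and 2598, median-of-ratios scaling 3448 and 3297, and leaving out olaparib replicate 2 gave 2621 and 2555. The median absolute log2 difference of the called genes was 0.29, and 80.8% of them differed by less than 0.5 on the log2 scale. A difference of at least 2-fold on this scale was reached by 191 genes that were higher with UPF1069 (1.43%) and by 62 that were lower (0.465%), and at least 4-fold by 25 and 2 genes. Both libraries of one compound lay above both of the other for 10475 genes (78.5%). The median over all genes tested was -0.016, so that a list of genes is read below against a level near 0. Its calls are read against 24.2% higher and 27.0% lower. All differences are UPF1069 minus olaparib on the log2(CPM + 1) scale, which understates the difference of genes with few reads. The 2-fold counts depend on that scale: edgeR on the recovered reads gave 315 higher and 104 lower genes.

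**Figure D1:**
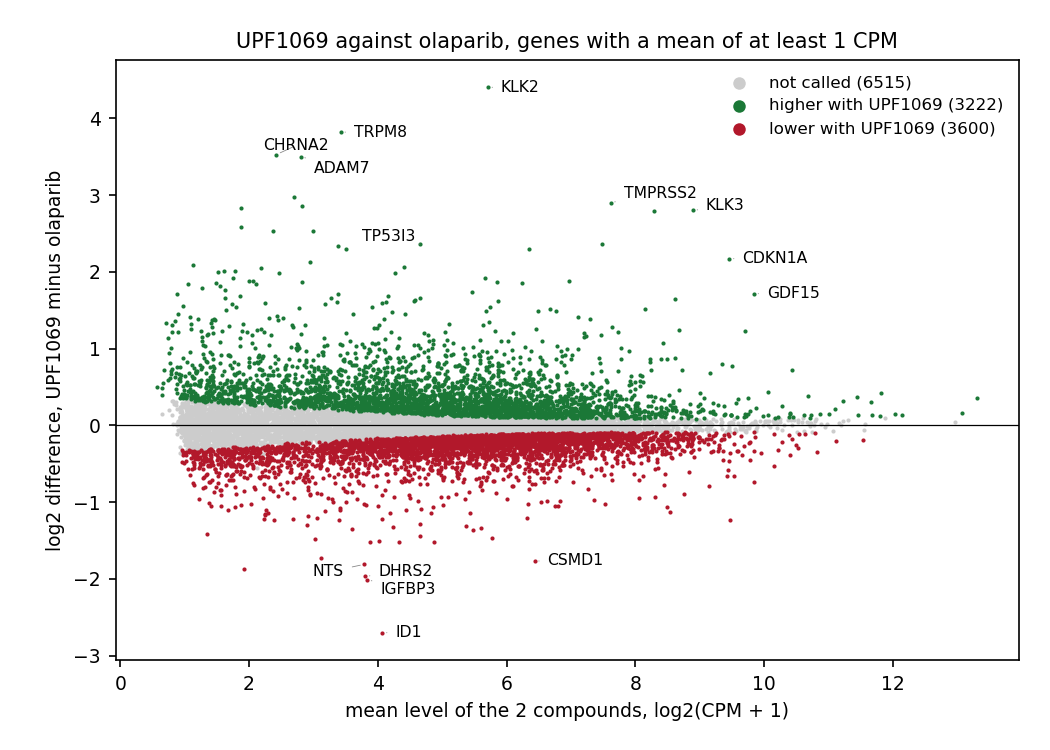
Each point is 1 of 13337 genes, with the mean level of the 2 compounds in log2(CPM + 1) on the x axis and the log2 difference, UPF1069 minus olaparib, on the y axis. Green marks the 3222 genes called higher with UPF1069, red the 3600 called lower and grey the rest. The points farthest above 0 are KLK2, TRPM8, CHRNA2 and ADAM7, and the point farthest below 0 is ID1.

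The list with the highest median was that of genes that androgen induces. Of 62 measured members of a list of 68 such genes, 55 were higher with UPF1069, 3 were lower and 4 were not called, beside 24.2% and 27.0% of all genes. The list median was 1.04, against -0.016 over all genes tested. Members relative to DMSO had a median of -0.087 with UPF1069 and of -1.11 with olaparib. In 61 of the 62, the libraries of the compounds did not overlap, against 78.5% of all genes, and 34 were at least 2-fold higher, against 1.43%.

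The kallikreins KLK3 and KLK2 are secreted serine proteases of the prostate, KLK3 being prostate-specific antigen, and the receptor acts on them through elements close to their start sites. The 250 bases before each start are printed because KLK2 had the largest log2 difference of the genes tested and shares with KLK3 an element that the receptor is known to bind. They were taken from RefSeq with build GRCh38.p14, are on the plus strand, and stand at chr19:50854665-50854914 for KLK3 and chr19:50873189-50873438 for KLK2. Capitals mark GAACAGCAAGTGCT, that androgen response element, which begins 169 bases before the start of KLK3 and 175 bases before that of KLK2.
KLK3: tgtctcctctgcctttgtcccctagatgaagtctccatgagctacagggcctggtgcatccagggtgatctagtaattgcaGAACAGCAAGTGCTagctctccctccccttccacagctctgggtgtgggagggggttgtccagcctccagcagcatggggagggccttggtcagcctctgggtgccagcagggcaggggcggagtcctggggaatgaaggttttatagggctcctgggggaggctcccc
KLK2: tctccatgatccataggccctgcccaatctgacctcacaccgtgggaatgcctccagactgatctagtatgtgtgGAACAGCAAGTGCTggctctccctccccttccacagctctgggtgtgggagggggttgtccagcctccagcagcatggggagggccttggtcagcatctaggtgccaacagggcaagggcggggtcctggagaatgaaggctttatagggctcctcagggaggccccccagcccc
Aligned with each other, the windows were identical at 211 of 237 bases (89%). The genes themselves are close paralogs, and how the authors' counting placed reads that fit both is not given in the sources used here. Searched on both strands, this element was found in 2 of 9375 tested genes with such a window (0.0213%), which are these 2 genes. Its letters were taken from the KLK3 window, so that the KLK3 match was fixed in advance. The count therefore does not measure how specific such elements are. The half-site AGAACA, which in KLK3 overlaps the first 5 capital letters, was found in 5 of 45 androgen-induced genes with a window (11.1%) and in 10.6% of all. A match of letters describes the window and does not show that the receptor was bound there.

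KLK2 stood at 239.8 and 240.1 CPM in the UPF1069 libraries, at 9.87 and 10.9 CPM in the olaparib libraries and at 258 and 271 CPM in DMSO. Both olaparib values were far below the other 4, and the log2 difference between the compounds was 4.41 (SE 0.047, limma adjusted p = 1.31e-25), a ratio of 23.1. KLK3 stood at 1264 and 1250.2 CPM with UPF1069, 181 and 179 CPM with olaparib and 1429 and 1444 CPM in DMSO, a difference of 2.80 (SE 0.039, limma adjusted p = 1.25e-23). The libraries of the compounds did not overlap, and UPF1069 lay nearer to DMSO. KLK4 and KLK15, further kallikreins of the same cluster, differed by 1.87 and 1.30. KLK4 was at 108 and 110.2 CPM with UPF1069 against 28.99 and 29.3 CPM with olaparib.

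Genes outside the kallikrein cluster were also lowest with olaparib. TMPRSS2, a membrane serine protease whose promoter is often fused to ETS genes in prostate cancer, was at 526 and 546 CPM with UPF1069, 70.3 and 71.2 CPM with olaparib and 493 and 493 CPM in DMSO (2.90, SE 0.038, limma adjusted p = 4.38e-24). Its UPF1069 libraries lay above the DMSO libraries and the olaparib libraries far below them. TRPM8, a cation channel opened by cold, was at 38.8 and 40.1 CPM against 1.82 and 1.91 CPM, a difference of 3.82 (SE 0.064). FKBP5, an immunophilin that binds the chaperone of steroid receptors, was at 154 and 147 CPM with UPF1069, 53.5 and 51.98 CPM with olaparib and 172 and 179.8 CPM in DMSO, a smaller difference of 1.49 (SE 0.041).

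A few androgen-induced genes stood near or below 1 CPM with olaparib and well above it in the other groups. CHRNA2, a subunit of the nicotinic acetylcholine receptor, was at 17.3 and 17.2 CPM with UPF1069 and at 0.575 and 0.588 CPM with olaparib, beside 26.1 and 27.3 CPM in DMSO. Its ratio of 29.7 was the widest of the genes named here, and its log2 difference, which holds the added 1 CPM, was 3.53 (SE 0.077). ADAM7, a member of the disintegrin and metalloprotease family, was at 21.2 and 23.8 against 0.999 and 1.15 CPM (3.50). HPGD, which inactivates prostaglandins, was at 8.01 and 7.89 against 0.545 and 0.448 CPM (2.58). Its UPF1069 and DMSO values (9.51 and 10.4 CPM) were of similar size, and its olaparib values were the only ones below 1 CPM. The sialyltransferase ST6GALNAC1 differed by 2.97 and SLC45A3, the prostate transporter also known as prostein, by 2.37.

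Members of the list that went the other way were 3. They are ACPP, prostatic acid phosphatase, at -0.35, STEAP2, a metalloreductase, at -0.45 and PTPN21, a tyrosine phosphatase, at -0.52. ACPP was at 51.01 and 54.3 CPM with UPF1069 and 66.7 and 68.1 CPM with olaparib, and the groups did not overlap. Members without a call were EAF2, TSC22D3, SGK1 and VAPA, at 0.17, 0.051, 0.016 and -0.059. TSC22D3 and SGK1 are also classic targets of the glucocorticoid receptor. These members, like KLK4 and KLK15 above, were named after their values were seen.

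**Figure D2:**
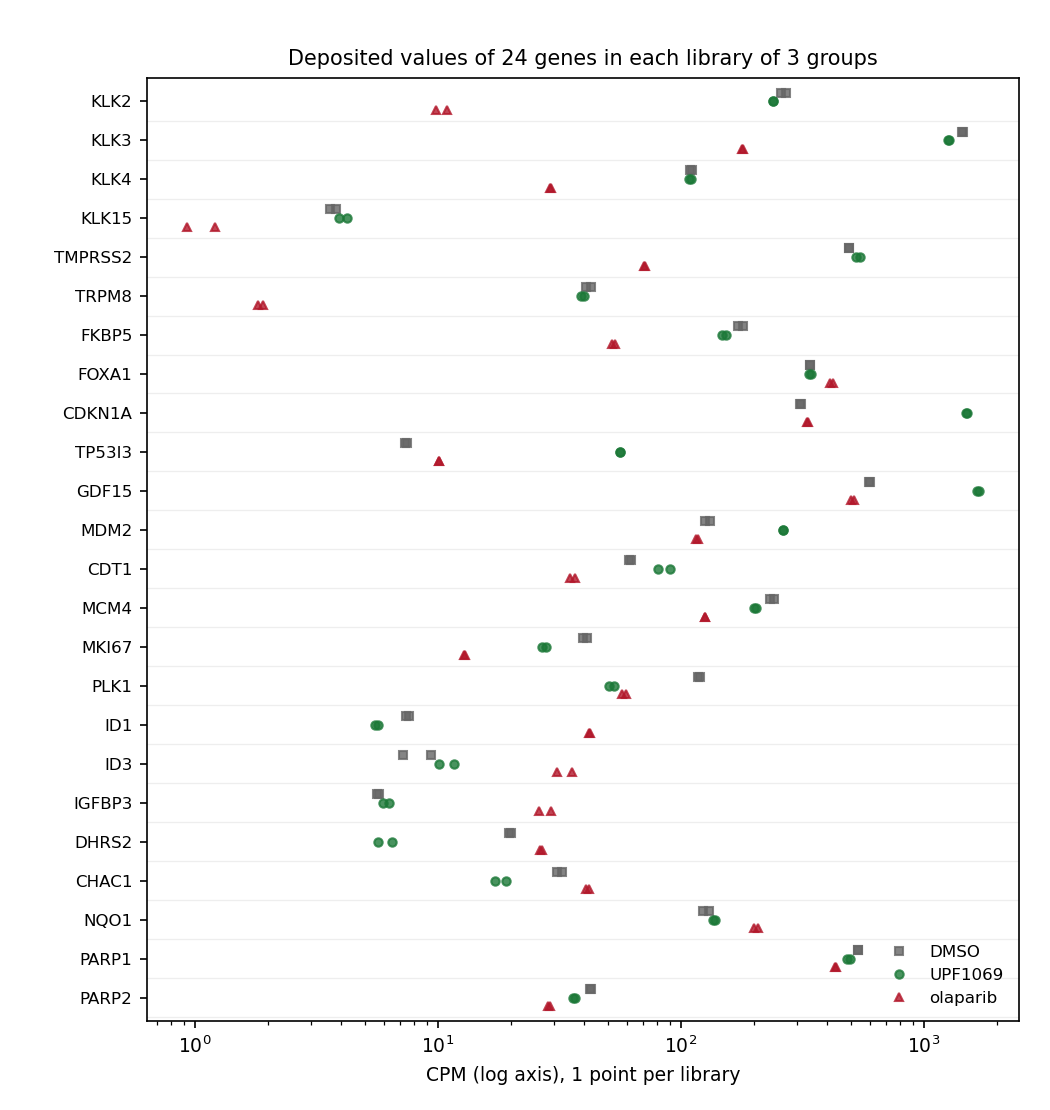
Deposited values of 24 genes on a log axis of CPM, 1 point per library, with DMSO as grey squares, UPF1069 as green circles and olaparib as red triangles. For KLK2, KLK3 and TMPRSS2 the triangles stand apart to the left of both other groups, and for CDKN1A, TP53I3, GDF15 and MDM2 the circles stand apart to the right of both.

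Genes repressed by androgen showed the reverse order. Of 19 measured members of 20, 16 were lower with UPF1069 and 2 were higher, beside 27.0% and 24.2% of all genes, with a median of -0.45. NTS, the peptide neurotensin, was at 6.34 and 6.45 CPM with UPF1069, 25.8 and 24.1 CPM with olaparib and 4.29 and 4.71 CPM in DMSO (-1.81, SE 0.10, limma adjusted p = 1.28e-12). The olaparib values were the high ones, and no library of UPF1069 reached them. GRB10, an adapter that dampens insulin receptor signalling, was at 243 and 253 CPM with UPF1069, 517 and 525 CPM with olaparib and 213 and 208 CPM in DMSO (-1.07). The sucrase-isomaltase gene SI and the opioid receptor gene OPRK1 differed by -1.24 and -0.996, at levels up to 15.4 CPM. The members that were higher with UPF1069 were PEG3 at 0.77 and ADAMTS1 at 0.15, named after their values were seen, and CCND1, cyclin D1, was at 0.076 (95% interval 0.0012 to 0.15, limma adjusted p = 0.0833). Cyclin D1 passed the threshold with edgeR, with median-of-ratios scaling, with only the 4 libraries compared and without either veliparib library, at 0.076 to 0.0997.

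Transcription factors of the luminal cell went in both directions. FOXA1, the pioneer factor that opens chromatin for the receptor, was at 335 and 344 CPM against 409 and 423 CPM (-0.29, SE 0.040), and the homeobox factor HOXB13 differed by -0.25. Both were lower with UPF1069, in the opposite direction to the androgen-induced genes. Of 22 measured receptor partners and luminal transcription factors, 8 were higher with UPF1069 and 11 were lower, with a median of -0.10. These shares were 36.4% and 50%, beside 24.2% and 27.0% of all genes. The coactivator NCOA3 differed by -0.74 while SPDEF, an ETS factor that is also on the androgen-induced list, differed by 1.02.

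The enzymes that attach glucuronic acid to androgens for export split in direction. UGT2B15 was at 40.2 and 44.5 CPM with UPF1069 and 68.2 and 72.5 CPM with olaparib (-0.72), and UGT2B17 at 66.4 and 68.1 against 99.9 and 101 CPM (-0.57). UGT2B28 and UGT2B11 went the other way, at 1.37 and 0.97. Of 7 measured members of the pathway 3 were higher and 4 lower, beside 24.2% and 27.0% of all genes, with a median of -0.25. These genes are near copies of each other, and how the counting placed shared reads is not known. Of 12 measured luminal markers, a list that also holds HOXB13, 3 were higher and 5 lower (3 without any 1 of the 4 libraries compared). These shares were 25% and 41.7%, so that the share higher was near that of all genes, 24.2%. Among the markers were KRT19, a keratin, at 1.54, and FOLH1, prostate-specific membrane antigen, at -0.53. FOLH1 was at 942 and 948 CPM with UPF1069 against 1364 and 1366 CPM with olaparib.

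Targets of p53 formed the other large block that was higher with UPF1069, and here UPF1069 was the compound away from DMSO. Of 38 measured members of 39, 34 were higher, 2 were lower and 2 were not called, with a median of 0.84. Over all genes tested, 24.2% were higher and 27.0% lower. Relative to DMSO, the median was 0.65 with UPF1069 and -0.066 with olaparib. The libraries of the compounds did not overlap in 38 of the 38, against 78.5% of all genes. At least 2-fold higher were 15 members, against 1.43% of all genes.

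CDKN1A, the cyclin-dependent kinase inhibitor p21, was at 1492 and 1497 CPM with UPF1069, 329.6 and 332 CPM with olaparib and 309.7 and 311 CPM in DMSO. The olaparib and DMSO values lay close together and the UPF1069 values stood above both, with a difference between compounds of 2.17 (SE 0.034, limma adjusted p = 1.35e-22). TP53I3, an oxidoreductase first found as a p53-induced gene, was at 56.1 and 56.1 CPM with UPF1069, 10.1 and 10.1 CPM with olaparib and 7.30 and 7.47 CPM in DMSO (2.36, SE 0.073). GDF15, a secreted stress cytokine, was at 1646 and 1682 CPM with UPF1069, 513 and 499 CPM with olaparib and 594 and 598 CPM in DMSO (1.72, SE 0.036). For both genes UPF1069 was the high group, while olaparib lay above DMSO for TP53I3 and below it for GDF15. The antiproliferative gene BTG2 differed by 1.52 and MDM2, the ubiquitin ligase that degrades p53, by 1.17. MDM2 was at 264 and 264 CPM with UPF1069 against 115 and 118 CPM with olaparib and 132 and 126 CPM in DMSO.

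The p53 targets lower with UPF1069 were TP53INP1 at -0.34 and SESN1 at -0.32, and those not called were APAF1 at 0.18 and TNFRSF10C at 0.098. APAF1 was called with edgeR, without olaparib replicate 1 and without either veliparib library. These 4 genes were named after their values were seen. In the BCL2 family, which decides on the permeability of the mitochondrial membrane, 7 of 16 measured genes were higher and 3 lower. These shares were 43.8% and 18.8%, beside 24.2% and 27.0% of all genes. BBC3 (PUMA), at 25.5 and 23.7 against 11.05 and 10.4 CPM (1.13), and BAX, at 68.4 and 70.2 against 39.8 and 37.7 CPM (0.82), are p53 targets as well. Of 7 listed APOBEC3 cytidine deaminases 3 were measured, the rest being too low. Of these 3, 2 were higher, APOBEC3H by 1.38 and APOBEC3B by 1.004, beside 24.2% of all genes. APOBEC3H was at 3.72 and 3.13 CPM with UPF1069, 0.635 and 0.757 CPM with olaparib and 0.380 and 0.618 CPM in DMSO, low levels in all 6 libraries. APOBEC3H reached the mean of 1 CPM only through its UPF1069 libraries, so that the filter favoured this direction.

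**Figure D3:**
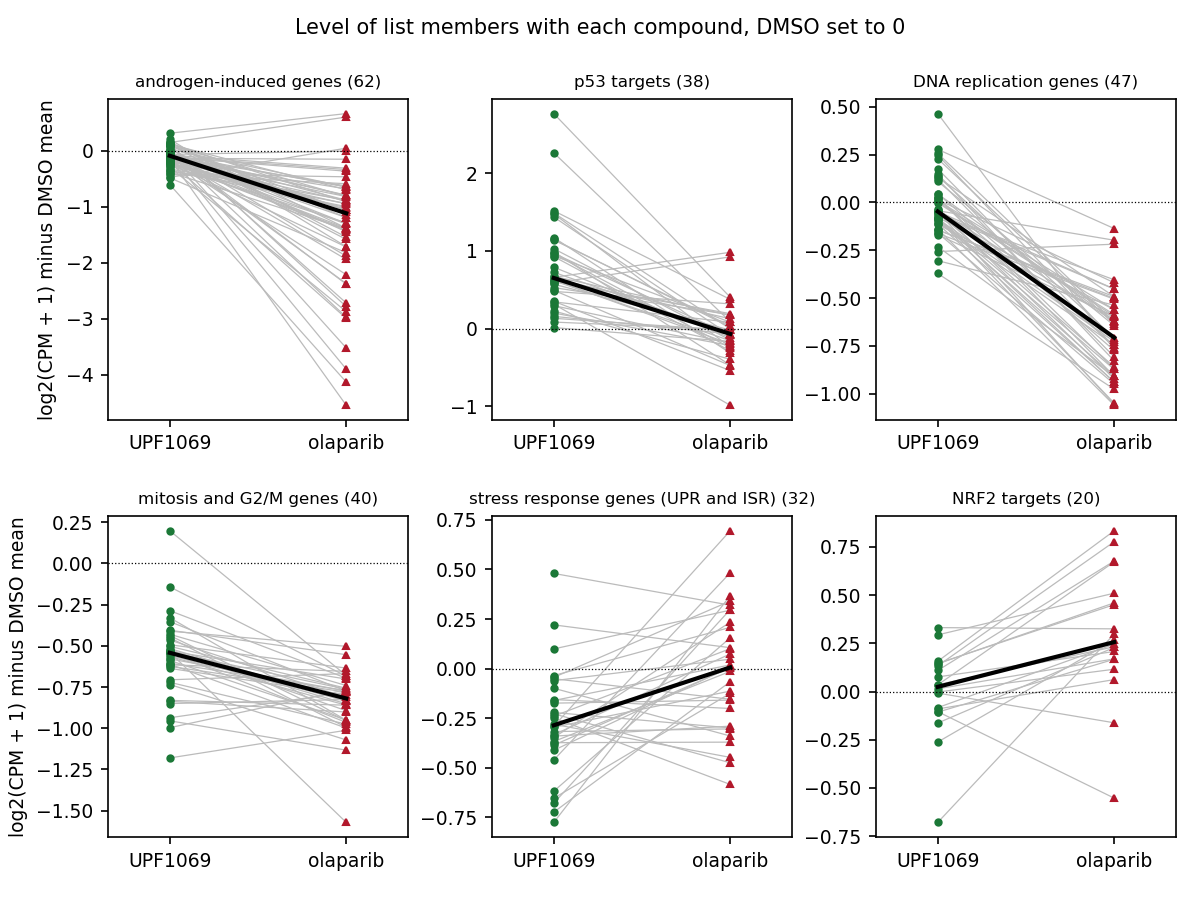
For 6 gene lists, each thin line joins the level of 1 member with UPF1069 (left) and with olaparib (right), both as log2(CPM + 1) minus the DMSO mean, and the black line joins the list medians. The median runs from -0.087 to -1.11 for the 62 androgen-induced genes and from 0.65 to -0.066 for the 38 p53 targets. Both compounds share the same DMSO libraries, so that the 2 ends of a line are not independent.

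Genes of DNA replication were higher with UPF1069 almost throughout. Of 47 measured members of 48, 46 were higher and 1 was not called, beside 24.2% of all genes called higher, with a median of 0.68. Their median relative to DMSO was -0.048 with UPF1069 and -0.71 with olaparib. CDT1, which loads the replicative helicase, was at 90.3 and 80.8 CPM with UPF1069, 36.8 and 34.8 CPM with olaparib and 62.1 and 61.1 CPM in DMSO (1.23, SE 0.057, limma adjusted p = 5.01e-14). The UPF1069 values were the highest of the 3 groups and the olaparib values the lowest. MCM4, a subunit of that helicase, was at 199.8 and 203 CPM with UPF1069, 125 and 126 CPM with olaparib and 242 and 232 CPM in DMSO (0.68). The histone chaperone ASF1B, the initiation factor MCM10, the GINS subunit GINS4 and the ribonucleotide reductase subunit RRM2 differed by 1.01, 0.98, 0.97 and 0.96. CCNE2, cyclin E2, was the member without a call, at 11.3 and 12.3 against 12.04 and 12.2 CPM (-0.038, 95% interval -0.19 to 0.11). In a bulk sample, fewer cells in S phase and less transcript per cell cannot be told apart.

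Homologous recombination and Fanconi genes, which repair broken forks and are often produced with the replication genes, were mostly higher with UPF1069 as well. Of 34 measured, 28 were higher with UPF1069 and 3 were lower, beside 24.2% and 27.0% of all genes, with a median of 0.65. RAD54L, a motor protein of strand exchange, was at 33.9 and 32.2 CPM with UPF1069 and 15.4 and 15.6 CPM with olaparib, beside 32.7 and 31.9 CPM in DMSO (1.05, SE 0.060). BRCA1 was at 50.7 and 47.2 CPM with UPF1069, 29.8 and 29.4 CPM with olaparib and 50.3 and 53.6 CPM in DMSO (0.71). In RAD54L and BRCA1 the UPF1069 values were of the size seen in DMSO and the olaparib values were lower. The helicase BRIP1, C17orf53 and FANCG, a core subunit of the Fanconi ligase, differed by 0.98, 1.01 and 0.92. The members lower with UPF1069 were BARD1 at -0.28, NBN at -0.21 and RAD50 at -0.16, named after their values were seen. The NBN call ended without olaparib replicate 2, and that of RAD50 without olaparib replicate 2 or UPF1069 replicate 1.

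Cyclins, their kinases and the E2F factors, some of which drive and some of which repress replication genes, were higher in part. Of 30 measured, 17 were higher and 1 was lower, beside 24.2% and 27.0% of all genes. The lower one was the inhibitor CDKN1B, named after its value was seen, at -0.32. E2F7, a repressor among the E2F factors, was at 24.1 and 25.1 CPM with UPF1069, 7.57 and 8.01 CPM with olaparib and 18.05 and 16.2 CPM in DMSO (1.54). E2F2 and E2F1 differed by 1.05 and 0.89. The list also holds CDKN1A, a brake on the cycle.

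Genes of mitosis were mostly higher with UPF1069 as well, by smaller amounts. Of 40 measured, 30 were higher with UPF1069, 2 were lower and 8 were not called, with a median of 0.26. Over all genes, 24.2% were higher and 27.0% lower. Relative to DMSO, the median was -0.54 with UPF1069 and -0.82 with olaparib, so that both compounds stood below DMSO. MKI67, the proliferation antigen Ki-67, was at 27.9 and 26.8 CPM with UPF1069, 12.9 and 12.8 CPM with olaparib and 39.3 and 41.00 CPM in DMSO (1.03, SE 0.056, limma adjusted p = 8.81e-13). The kinase CDK1 was at 236 and 231 against 125 and 129 CPM (0.88), and the UPF1069 values lay above DMSO (199 and 208 CPM). NUSAP1 and AURKB, proteins of the spindle, differed by 0.62 and 0.54.

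The genes that were lower with UPF1069 were PLK1 and CDC20, a kinase and an activator of the anaphase ligase that act late in mitosis. PLK1 was at 53.1 and 50.4 CPM with UPF1069, 59.5 and 56.96 CPM with olaparib and 118 and 119 CPM in DMSO (-0.17, SE 0.048, limma adjusted p = 0.0056), a call that ended without UPF1069 replicate 2 or olaparib replicate 1. CDC20 was at 68.4 and 67.5 CPM with UPF1069, 81.1 and 78.7 CPM with olaparib and 137 and 136 CPM in DMSO (-0.23, SE 0.043). In both genes all 4 compound libraries lay far below both DMSO libraries, and the gap between the compounds was small beside that.

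Late cell cycle promoters are known for a core of the cell cycle genes homology region, TTTGAA, near the start and for CCAAT boxes that bind the factor NF-Y. The 150 bases before the start of PLK1 and CDC20 are printed because these are the mitotic genes that went against the rest of their list. They are from RefSeq with build GRCh38.p14, on the plus strand at chr16:23678739-23678888 and chr1:43358831-43358980, with TTTGAA and CCAAT in capitals.
PLK1: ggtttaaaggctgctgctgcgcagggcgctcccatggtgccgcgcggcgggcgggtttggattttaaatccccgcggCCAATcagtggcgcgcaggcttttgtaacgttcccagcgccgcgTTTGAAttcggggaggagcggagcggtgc
CDC20: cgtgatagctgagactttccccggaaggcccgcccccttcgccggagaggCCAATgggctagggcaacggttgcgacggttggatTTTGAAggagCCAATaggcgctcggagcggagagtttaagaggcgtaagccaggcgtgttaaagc
In the 250 bases before the start, searched on both strands, TTTGAA was found in 21 of 34 mitotic genes with a window (61.8%) and in 11.4% of 9375 tested genes. CCAAT was found in 30 of 34 (88.2%) and in 42.2% of all. In 15 of the 21 genes TTTGAA began within 40 bases of the start. The 21 genes with TTTGAA had a median of 0.29, with 16 higher and 2 lower, and the 13 without it had a median of 0.17, with 10 higher and 3 not called. PLK1 and CDC20 thus carry the same letters as 16 genes of the list that were higher. Replication genes held other letters: the E2F site TTTGGCGC was found in 6 of 39 (15.4%), against 1.14% of all, and TTCCCGCC in 8 of 39 (20.5%), against 5.74% of all. These shares describe the windows alone, and a site missing from them says nothing of the factor.

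**Figure D4:**
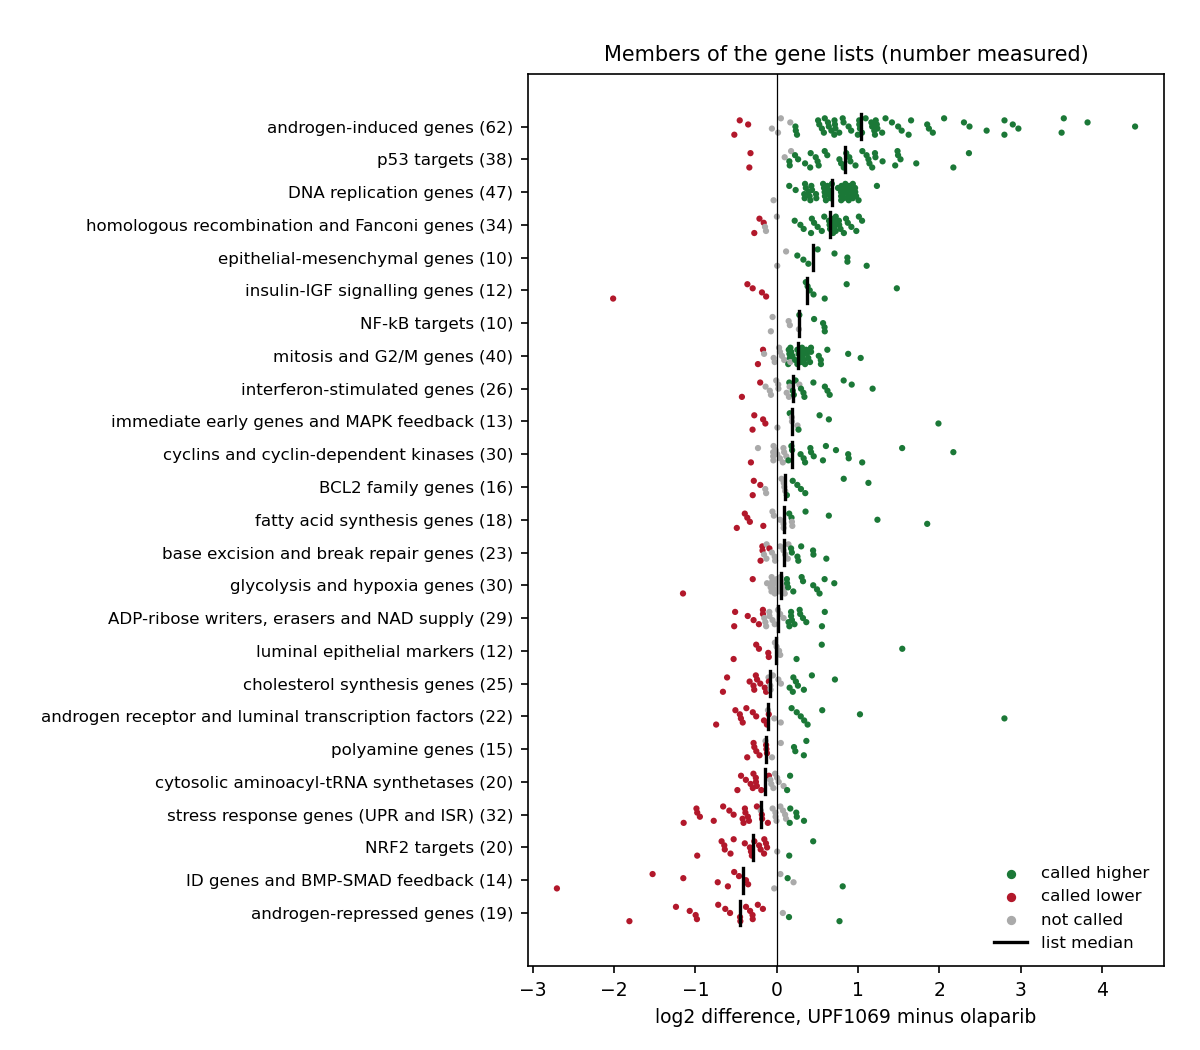
Each point is a measured member of a gene list with at least 10 such members, placed by its log2 difference, UPF1069 minus olaparib, and coloured by its call. The black bar is the list median, from 1.04 for the androgen-induced genes at the top to -0.45 for the androgen-repressed genes at the bottom.

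ID genes led the genes that were lower with UPF1069. ID proteins lack a DNA-binding region and block the differentiation factors they pair with, and BMP signals through SMAD proteins induce them. ID1 was at 5.67 and 5.51 CPM with UPF1069, 42.1 and 41.7 CPM with olaparib and 7.57 and 7.38 CPM in DMSO (-2.70, SE 0.075, limma adjusted p = 5.12e-18). UPF1069 lay slightly below DMSO, and olaparib stood far above both. ID3 was at 11.6 and 10.1 against 35.5 and 30.96 CPM (-1.53) and ID2 at 11.03 and 11.5 against 24.8 and 27.5 CPM (-1.15). Of 14 measured ID and BMP-SMAD genes 9 were lower and 2 higher (1 without UPF1069 replicate 2, olaparib replicate 1 or olaparib replicate 2), with a median of -0.42. Over all genes, 27.0% were lower and 24.2% higher. Feedback inhibitors of the pathway were among the lower ones, with SMAD7 at -0.52 and SMAD6 at -0.60, named after their values were seen, while the receptor BMPR1B, also on the androgen-induced list, was at 0.81.

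Insulin-like growth factor genes went in both directions. IGFBP3, which binds the growth factors in the medium, was at 5.93 and 6.29 CPM with UPF1069, 26.2 and 29.2 CPM with olaparib and 5.71 and 5.59 CPM in DMSO (-2.01, SE 0.087). The olaparib libraries were the high ones and did not overlap with the others. IGF1R, the receptor, was at 29.5 and 30.9 CPM with UPF1069, 10.3 and 10.1 CPM with olaparib and 31.3 and 29.4 CPM in DMSO (1.48, SE 0.061). The ligand IGF1 was at 2.96 and 2.38 against 0.968 and 1.06 CPM (0.86) and the adapter IRS2 differed by 0.59. Of 12 measured members 7 were higher with UPF1069 and 5 lower, beside 24.2% and 27.0% of all genes. Among MAPK feedback and immediate early genes, 5 of 13 were higher and 4 lower (3 and 2 without UPF1069 replicate 2, and 2 lower without olaparib replicate 1). With 38.5% higher and 30.8% lower, the share lower was near that of all genes. The phosphatase DUSP4 led the list, at 36.5 and 37.9 CPM with UPF1069 against 8.84 and 8.41 CPM with olaparib (1.99). MYC was at 285 and 285 CPM with UPF1069 and 203 and 192 CPM with olaparib (0.53).

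Other genes with the largest negative differences belonged to no list. DHRS2, a dehydrogenase, was at 6.49 and 5.67 CPM with UPF1069, 26.4 and 26.8 CPM with olaparib and 19.5 and 19.9 CPM in DMSO (-1.97, SE 0.072). Here the olaparib values lay above DMSO and the UPF1069 values below it. The large membrane protein gene CSMD1 was at 44.9 and 46.95 CPM against 154 and 163 CPM, beside 45.5 and 44.03 CPM in DMSO (-1.77). DAPK1, a kinase linked to cell death, was at 3.72 and 3.82 against 14.7 and 14.9 CPM (-1.73), and the phospholipase PLD1 at 0.883 and 1.06 against 6.90 and 5.60 CPM (-1.87). PLD1 reached the mean of 1 CPM only through its olaparib libraries, so that the filter favoured this direction. SEMA6A, MID1, ATXN1, MAN1A1, DENND1B, TLL1 and LRRN1 differed by between -1.52 and -1.37. In all 7 the olaparib libraries were the high ones. Beside the androgen and p53 genes, the largest positive differences were those of ZNF812, a zinc finger gene, at 2.86, of AP003057.1 at 2.54 and of F5, coagulation factor V, at 2.53. TRGC1, a T cell receptor gamma gene, differed by 2.83. The file lists it as TARP, a symbol of the androgen-induced list, but it was not counted with that list, and its reads can overlap those of neighbouring gamma genes. F5 was at 17.1 and 19.3 CPM with UPF1069 against 2.27 and 2.35 CPM with olaparib.

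Some of the largest differences were in neighbouring genes. Among 12385 pairs of tested genes that follow each other on a chromosome in RefSeq order, both members differed by at least 2-fold in 12, in the same direction in 10. Of single genes, 1.43% were 2-fold higher and 0.465% 2-fold lower. How many such pairs unrelated genes would give was not computed, and several of the 12 come from the first run below. On chromosome 19, C19orf48, KLK15, KLK3, KLK2, KLKP1 and KLK4 form 1 run, and all 6 were higher with UPF1069, from 1.22 for the pseudogene KLKP1 to 4.41 for KLK2. On chromosome 3, TERC, ACTRT3 and MYNN, the first of which is the RNA of telomerase, form a run that was lower, at -1.05, -1.36 and -1.34. MYNN had a mean of 29.6 CPM with UPF1069 and 76.7 CPM with olaparib. C19orf48, KLKP1, TERC, ACTRT3 and MYNN were named after their values were seen.

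Genes of amino acid and protein stress were lower with UPF1069. Of 32 measured members of the unfolded protein and integrated stress responses 18 were lower and 5 higher, beside 27.0% and 24.2% of all genes, with a median of -0.19. Without either veliparib library 8 were higher. CHAC1, which degrades glutathione, was at 19.01 and 17.2 CPM with UPF1069, 40.6 and 41.8 CPM with olaparib and 32.4 and 31.00 CPM in DMSO (-1.14, SE 0.073, limma adjusted p = 1.45e-11). For CHAC1, DMSO stood between the compounds. The whole list relative to DMSO had a median of -0.29 with UPF1069 and of 0.0061 with olaparib. ASNS, asparagine synthetase, was at 185 and 195 CPM with UPF1069, 361 and 373 CPM with olaparib and 255 and 269.8 CPM in DMSO (-0.94). DDIT3, the factor CHOP, and SLC7A11, the cystine transporter, differed by -0.99 and -0.98. ATF3, a stress factor that p53 also induces, was not called, at 45.02 and 46.3 against 42.5 and 41.7 CPM (0.12, 95% interval 0.011 to 0.22, limma adjusted p = 0.0597), though it was with edgeR, with both other scalings, with only the 4 libraries compared and without either veliparib library. Of 20 cytosolic aminoacyl-tRNA synthetases, several of which respond to the same stress, 11 were lower and 2 higher (1 without UPF1069 replicate 1, UPF1069 replicate 2 or olaparib replicate 1), with GARS at -0.48 and CARS at -0.44.

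NRF2 targets, which detoxify oxidants, were also mostly lower with UPF1069. Of 20 measured 17 were lower and 2 higher, beside 27.0% and 24.2% of all genes, with a median of -0.29. NQO1, a quinone reductase, was at 136 and 138 CPM with UPF1069, 199 and 207 CPM with olaparib and 124 and 129.9 CPM in DMSO (-0.57, SE 0.040). UPF1069 lay just above DMSO, and olaparib above both. The aldo-keto reductases AKR1C1, AKR1C2 and AKR1C3 differed by -0.68, -0.64 and -0.64, at levels of at most 3.27 CPM, and they are near copies of each other. AKR1C1 and AKR1C3 reached the mean of 1 CPM only through their olaparib libraries, so that the filter favoured this direction. Both are among the 17. Among metallothioneins and zinc genes 3 of 6 were lower and 1 higher, with MT1G at -0.63 and the zinc exporter SLC30A1 at 0.29. Of 3 measured aryl hydrocarbon receptor genes NQO1 alone was called.

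Lipid genes were split within their pathways. ELOVL7 and ELOVL5, which lengthen fatty acids and are also androgen-induced, differed by 1.85 and 1.24. ELOVL5 was at 633 and 627 CPM with UPF1069, 266 and 267 CPM with olaparib and 649 and 663 CPM in DMSO. Over the fatty acid list 6 of 18 were higher and 5 lower, and over cholesterol synthesis 8 of 25 higher and 11 lower (7 without UPF1069 replicate 2). The shares were 33.3% and 27.8% for fatty acid genes and 32% and 44% for cholesterol genes. Over all genes they were 24.2% higher and 27.0% lower. TM7SF2, a sterol reductase, differed by -0.61, and HMGCS1, which starts the pathway, by -0.13. The HMGCS1 call ended without either UPF1069 library and without olaparib replicate 2. Of 30 glycolysis and hypoxia genes 11 were higher and 2 lower (5 without either veliparib library), with a median of 0.049. The hexokinase HK2 differed by 0.59, NDRG1, which hypoxia and androgen both induce, by 0.71, and ADM, the peptide adrenomedullin, by -1.15. Among 15 polyamine genes 4 were higher and 8 lower (5 without either UPF1069 library or olaparib replicate 1), with spermidine synthase SRM at 0.36 and ornithine decarboxylase ODC1 at -0.25.

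The targets of the compounds differed little as transcripts. PARP1 was at 495 and 483 CPM with UPF1069, 433 and 432 CPM with olaparib and 537 and 536 CPM in DMSO (0.18, SE 0.036, limma adjusted p = 0.000287). PARP2 was at 35.8 and 36.5 CPM with UPF1069, 28.9 and 28.5 CPM with olaparib and 42.5 and 42.2 CPM in DMSO (0.32, SE 0.052). Among these 3 groups both genes had their highest values in DMSO and their lowest with olaparib, without overlap. The veliparib libraries were above DMSO for PARP1, at 573 and 597 CPM. Over 29 measured ADP-ribose writers, erasers and NAD supply genes 12 were higher with UPF1069 and 7 lower, with a median of 0.016. These shares were 41.4% and 24.1%, beside 24.2% and 27.0% of all genes. The 12 became 7 without UPF1069 replicate 1 or olaparib replicate 1. The list was led by NNMT, which consumes nicotinamide, at 0.59, and by PARP14, PARP8 and PARP11 at 0.56, -0.52 and -0.51. PARP3 was not called, at -0.15 (95% interval -0.30 to -0.0071, limma adjusted p = 0.0742), though it was with only the 4 libraries compared and without either veliparib library. The tankyrase TNKS differed by -0.22. PARG, which removes the chains, differed by 0.18 (limma adjusted p = 0.0232), a call lost with DESeq2 and without UPF1069 replicate 1, UPF1069 replicate 2 or olaparib replicate 1. Of 23 base excision and break repair genes 8 were higher and 4 lower (2 or fewer without any 1 of the 4 libraries compared, 7 without either veliparib library), led by the nuclease APEX2 at 0.61 and by the glycosylases UNG and MUTYH at 0.45 and 0.45. With 34.8% higher and 17.4% lower, beside 24.2% and 27.0% of all genes, the median of this list was 0.084.

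Innate immune genes were higher with UPF1069 in part. Of 26 measured interferon-stimulated genes 14 were higher, 2 were lower and 10 were not called, with a median of 0.20. Over all genes, 24.2% were higher and 27.0% lower. OAS3, a sensor enzyme for double-stranded RNA, was at 39.3 and 41.3 CPM with UPF1069, 16.8 and 17.7 CPM with olaparib and 39.3 and 37.4 CPM in DMSO (1.18, SE 0.059). UPF1069 and DMSO values interleaved closely and olaparib stood below them. SAMD9 and IFI44 differed by 0.92 and 0.82, at levels of at most 5.07 CPM. Of 10 NF-kB targets 5 were higher and 5 were not called, with the subunit NFKB2 at 48.99 and 50.02 against 33.7 and 32.3 CPM (0.57). TNFAIP3, a feedback inhibitor, differed by 0.46, a call lost without UPF1069 replicate 2 or olaparib replicate 1.

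Genes linked to the epithelial-mesenchymal transition were higher with UPF1069 in 8 of 10 measured, and 2 were not called. Over all genes, 24.2% were higher and 27.0% lower. Without either UPF1069 library 5 were higher. THBS1, a matrix glycoprotein that p53 also induces, was at 42.1 and 40.7 CPM with UPF1069, 17.9 and 19.4 CPM with olaparib and 37.3 and 35.6 CPM in DMSO (1.11). Fibronectin, FN1, was at 459 and 454 CPM with UPF1069, 248 and 251 CPM with olaparib and 373 and 368 CPM in DMSO (0.87). TWIST1 and SNAI2, transcription factors of the transition, differed by 0.87 and 0.71, SNAI2 at most at 1.59 CPM in DMSO. Some markers of other cells were also higher with UPF1069 than with olaparib. The summed level of 4 stromal markers among the features was 22.04 CPM in each UPF1069 library, 16.8 to 17.5 CPM with olaparib and 19.3 to 19.4 CPM in DMSO, while COL1A2 and DCN were not analysed here. VWF, the single endothelial marker among the features, was at 9.43 and 8.58 CPM with UPF1069 against 5.39 and 5.86 CPM with olaparib. In DMSO it was highest, at 11.3 and 10.4 CPM. All libraries are of the LNCaP line, and which cells these transcripts came from was not tested. Of 3 measured neuroendocrine genes 2 were lower with UPF1069, NTS at -1.81, as given above, and SYP at -0.43, the latter a call lost with DESeq2 and without UPF1069 replicate 2 or olaparib replicate 1.

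Among the most abundant called genes, differences were small. MTCO1P12, a nuclear copy of a mitochondrial gene that can share reads with it, was at 11529 and 11557 CPM with UPF1069 and 8898 and 9065 CPM with olaparib (0.36). MTATP6P1 and MTCO3P12, of the same kind, differed by 0.43 and 0.30. The translation factor EEF2 differed by 0.16 and the ribosomal protein genes RPL13A, RPL3, RPS2, RPL4 and RPS18 by 0.13, 0.15, 0.12, 0.13 and 0.14. Each of these 6 calls ended without at least 1 of the 4 libraries compared, and those of EEF2, RPL13A, RPS2 and RPS18 also without a filter on low values. The chaperone HSPA8 was lower with UPF1069, at 2781 and 2797 against 3184 and 3190.1 CPM (-0.19).

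Loss of the enzymes by siRNA gives a reference for the same genes on another scale. The siRNA libraries, with 2 per group after 72 h, were normalised apart from the inhibitor libraries, and their levels are given without a test. PARP1 had a mean of 465 normalised reads, on that table's own scale, with the control siRNA siNC and of 5.22 and 9.02 with the PARP1 siRNAs A and B. PARP2 had a mean of 27.4 with siNC and of 2.81 and 1.40 with the PARP2 siRNAs. The targeted transcript was thus low in the libraries labelled for it, and siPARP2-B libraries also had the lowest PARP1 level outside the PARP1 siRNAs, at 153. KLK2 had a mean of 435 with siNC, 172 and 454 with the PARP1 siRNAs and 87.8 and 35.5 with the PARP2 siRNAs. TMPRSS2 had 837, then 242 and 386, then 278 and 152. Both were lowest with siPARP2-B. CDKN1A was high with 1 siRNA of each target, at 835 with siPARP1-A and 1368 with siPARP2-B, against 351 with siNC, and low with the others, at 142 and 176. ID1 had 203 with siNC and between 120.4 and 333 with the 4 siRNAs.

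**Figure D5:**
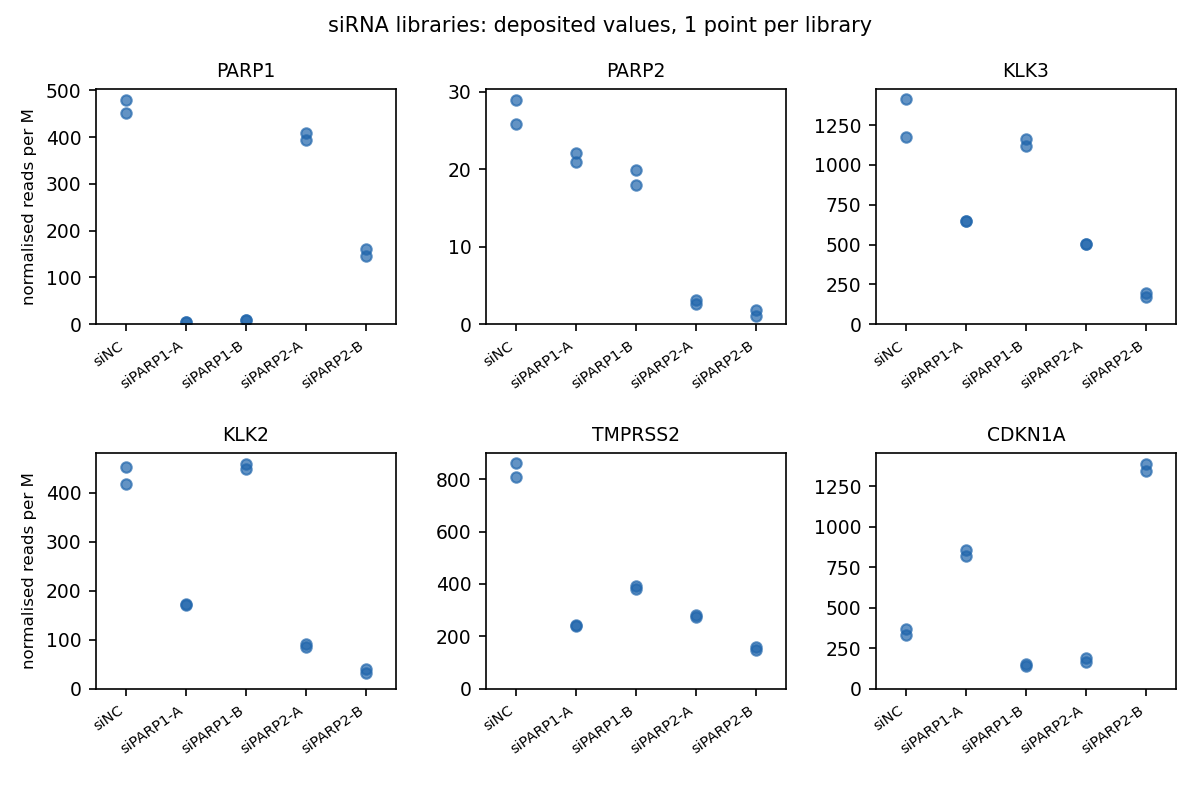
Deposited values of 6 genes in the siRNA libraries, in normalised reads on that table's scale, 1 point per library and each panel on its own axis from 0. PARP1 is near 0 in both PARP1 siRNA groups and PARP2 is lowest in both PARP2 siRNA groups, while KLK3, KLK2 and CDKN1A differ between the siRNAs of 1 target.

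With veliparib at the same dose and time, used here only for scale, KLK2 was at 224 and 239 CPM, KLK3 at 1177 and 1282 CPM and TMPRSS2 at 476 and 502 CPM, values on the side of UPF1069 and DMSO. CDKN1A was at 350.3 and 356 CPM and TP53I3 at 6.79 and 7.51 CPM with veliparib. ID1 was at 7.11 and 7.21 CPM. Olaparib thus had the lowest values of the inhibitor table for KLK2, KLK3 and TMPRSS2 and the highest for ID1.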

How the data were processed

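RNA was measured by sequencing in LNCaP cells, from total RNA extracted with RNeasy and made into libraries with NEBNext Ultra, per the labels' protocols. Named without their roles in the submitters' processing notes are hg19, edgeR 3.12.0, HTSeq 0.6.1, TopHat2 2.1.0 and bcl2fastq 2.18, and whether counting used strand is not given in the sources used here. The inhibitor table was deposited by the authors in CPM, and the siRNA table as a normalised signal on a scale of its own, deposited by the authors in a separate table. All values above 0 (100%) were within 0.01 of a whole number of reads after division by the column's smallest step, and the reads recovered so gave a depth of 26.4 to 35.7 M per inhibitor library. Floors of 3 reads cover counting error only.

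Of 21391 features, 4941 had no symbol in the file, and 823 file symbols belonged to another identifier or had turned into dates. These were named from the GENCODE annotation or by the identifier's current name, which left 742 with an identifier alone. Genes with a mean below 1 over the 8 inhibitor libraries were left out. The rest were fitted with limma 3.58.1 (R 4.3.3) by its trend method on log2(CPM + 1), group only, all 8 libraries in 1 fit with 4 residual and 17.6 prior degrees of freedom. The median SE of a difference was 0.0617. Tests were 2-sided with a Benjamini-Hochberg threshold of 0.05 over all genes, and intervals are at 95%. The method was checked on simulated data. Genes named are the 15 with the largest difference in each direction, up to 4 called members of each of 33 gene lists, landmark genes, and the 10 called genes with the highest CPM; the values of some are not reported here. The members compared and the lists were chosen with earlier results of these data known. Alternatives were edgeR 4.0.16 (6910 genes called) and DESeq2 1.42.0 on the recovered reads, other pseudocounts, filters and scalings, the 4 compared libraries alone, a replicate block and leaving out each library. Promoter windows are those of RefSeq, GRCh38.p14, for 9375 tested genes, and the files' coordinates were not used.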

Additional observations from a re-analysis of the deposited data

How the results depend on the processing

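Of 166 genes named by the rule, 162 were called, 147 of them under every alternative that gave a value (of 18 run; genes with a mean below 5 have none under that filter), and no named gene changed direction. The 6822 calls were 6910 with edgeR and 5404 with DESeq2 on the recovered reads, 6745 and 6793 with median-of-ratios and upper-quartile scaling, 7996 with only the 4 libraries compared, 6982 without a filter (6292 shared) and 5979 with a mean of at least 5. The 253 genes called at 2-fold or more (191 higher, 62 lower) became 419 with edgeR (315 higher, 104 lower) and 414 with DESeq2 (308 higher, 106 lower), which fold the reads without an added 1 CPM. Leaving out each library in turn gave 5170 to 8048 calls, 2457 to 3754 higher and 2555 to 4294 lower, and 250 to 260 at 2-fold. The 8048 came without either veliparib library, where the lone one is assumed to vary like the other groups. Deviations of libraries with the same replicate number correlated at -0.0598 to 0.0297 between groups, so that the numbers did not pair the libraries. A replicate block gave 6707 calls, 6675 of them shared in the same direction.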

Other observations

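The following gene families were chosen after their values were seen and carry no test of their own. Proteasome subunit genes, which build the protease that degrades ubiquitinated proteins, were lower with UPF1069 in 21 of 36 and higher in 1, with a median log2 difference of -0.15. Tubulin genes, the units of microtubules, were higher in 9 of 12 and lower in 2, with a median of 0.31. Histone cluster genes, most of whose messages lack a poly(A) tail, were lower in 13 of 22 and higher in 1, with a median of -0.32. Beside these counts, 24.2% of all genes tested were higher and 27.0% lower, with a median of -0.016.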
